A study of Mus with 5 samples.

Results

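Peaks of BATF and of RARα (retinoic acid receptor alpha) were examined at 10 genes of the calcineurin-NFAT route in mouse CD8 T cells. These were Nfatc1, Nfatc2, Nfatc3 and Nfat5, which encode NFAT transcription factors, Ppp3ca, Ppp3cb and Ppp3cc, which encode the catalytic subunits of calcineurin, Rcan1, which encodes a calcineurin inhibitor, and the zinc finger factor genes Egr2 and Egr3. A peak was taken when the gene names that the authors had attached to it included 1 of the 10, which gave 76 of 27480 peaks over 4 lists. The RARα lists held 6 of 1172 such peaks in the control and 3 of 597 with RA (retinoic acid, the ligand of RARα), and the BATF lists held 43 of 15812 and 24 of 9899. No peak named more than 1 of the 10 genes.

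The cells were CD8 T cells from spleens of wild-type mice. Exposure to RA was short, 1 h at 50 nM just before ChIP, and the control went without it. By then the cells had been kept unstimulated in 100 U/ml IL-2 for 24 h. That period came after 24 h of stimulation through CD3 and CD28, also with IL-2. The timing and doses are those of the methods, whereas a supplementary legend for the ChIP-seq gives a lower RA dose and the labels name an interleukin other than IL-2 for every sample. Chromatin immunoprecipitation sequencing (ChIP-seq), which recovers the DNA fragments that an antibody to a protein pulls down, was done for RARα and BATF in both conditions, with normal rabbit IgG as the background, and the labels do not say whether the IgG cells received RA. Each list was called on 2 pooled ChIP files against the same IgG file, so that 1 list stands for each condition. Replicate spread is therefore unknown, and the conditions were described without a test. Depth after filtering was 22655611 fragments in the RARα control pool and 22475060 in its RA pool. BATF had 23110180 in the control and 16424269, or 71.1% of that, with RA, and the IgG file had 11410673. Peaks had to reach a p-value of 0.001 in the RARα lists and 1e-05 in the BATF lists, so counts were compared between conditions and not between the antibodies.

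Calcineurin is a phosphatase that calcium and calmodulin switch on after the T cell receptor is engaged. It removes phosphates from the NFATc proteins, which then enter the nucleus and bind DNA, often beside AP-1 family factors, the family to which BATF belongs. Nfat5, which responds to osmotic stress, lacks the calcineurin-binding part of the others, Rcan1 is a well-known NFAT target that feeds back on calcineurin, and Egr2 and Egr3 are NFAT-induced genes linked to T cell anergy. RARα is a nuclear receptor that binds DNA with or without its ligand.

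BATF peaks were called at 8 of the 10 genes in both conditions, and Nfat5 and Rcan1 had no peak of either factor. In the annotation as a whole, 48.6% of 21896 protein-coding genes had a BATF control peak and 38.3% had a BATF peak with RA. From control to RA the number of BATF peaks was 12 and 5 at Nfatc1, 8 and 6 at Nfatc2, 3 and 2 at Nfatc3, 5 and 5 at Ppp3ca, 2 and 1 at Ppp3cb, 6 and 2 at Ppp3cc, 5 and 2 at Egr2, and 2 and 1 at Egr3. Only Ppp3ca of the 8 had the same number in both lists, but not at the same places. Its promoter control peak overlapped 2 RA peaks, and its control peak chr3:136725364-136725871 had no RA peak within 5 kb. The drop in the number of peaks was largest at Nfatc1, whereas the RA count was a smaller share of the control count at Ppp3cc and Egr2. These are counts per list and do not say which control peaks had an RA peak in the same place. At least 5 BATF control peaks were assigned to Nfatc1, Nfatc2, Ppp3cc, Ppp3ca and Egr2, as they were to 4.62% of all genes, and 51 genes had more than Nfatc1. Genes differ in length, which neither these shares nor those below take into account. Within the gene body, BATF control peaks per 100 kb were 9.36 at Nfatc1, 5.59 at Nfatc2, 8.37 at Ppp3cc and 1.49 at Ppp3ca. At Egr2, with 1 such peak in 7.72 kb, the value was 13.0. All 8 genes with a BATF control peak also had one with RA (76.5% of all such genes).

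**Figure D1:**
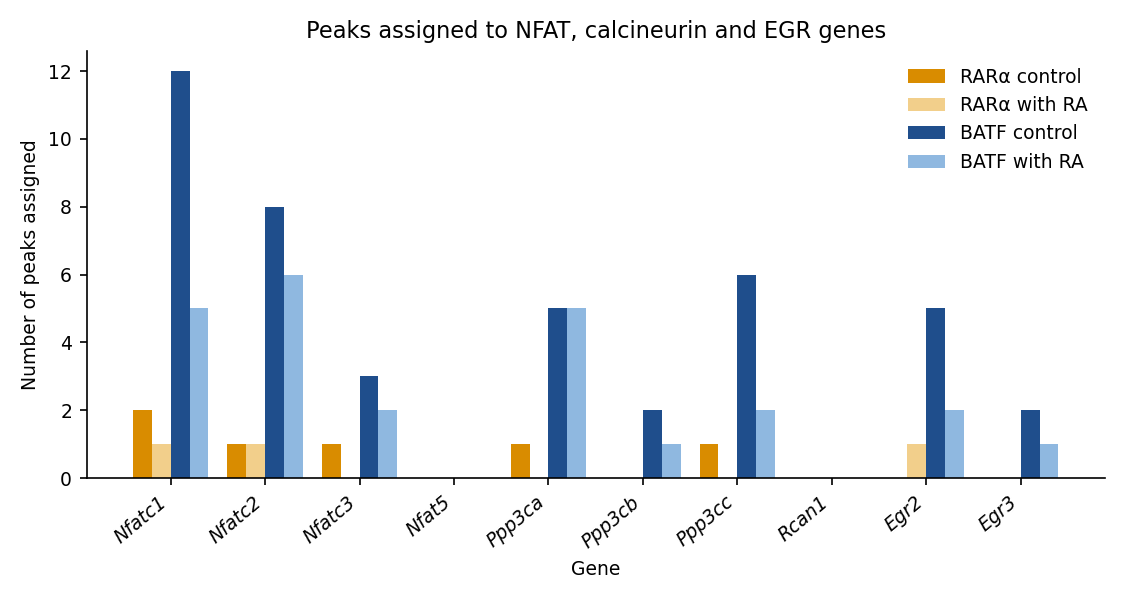
Number of peaks assigned to each of the 10 genes in the 4 lists, with genes along the horizontal axis and bars for RARα control, RARα with RA, BATF control and BATF with RA. Nfatc1 had 12 BATF control peaks and 5 with RA, Ppp3ca had 5 in both, and Nfat5 and Rcan1 had none.

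Nfatc1 (GRCm38 chr18:80606205-80713071), whose product accumulates after T cell activation, had the most peaks but the weakest best BATF peak of the NFAT genes. Its 12 BATF control peaks fell into 3 groups, 5 around the low-coordinate end, 3 in intron 2, and 4 around the high-coordinate end where the annotation places exon 1. Fold enrichment, which is the fragments at the summit plus 1 over the local IgG level plus 1, ran from 2.96 to 7.31 over these 12, and the highest value with RA was 5.29. The group in intron 2 (starts at 80684115, 80686159 and 80691431, fold 4.94, 4.45 and 4.61) had no RA peak within 5 kb. The gap from these to the nearest RA peak was 10664 bp or more.

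At the 5′ end of Nfatc1 the conditions differed by position. The control peak on exon 1, in the 5′ untranslated region (chr18:80712412-80713284), had 36 summit fragments and fold 7.31, and the promoter peak 1410 bp beyond the gene (chr18:80714481-80715210) had 28 fragments and fold 6.23. Neither overlapped an RA peak, the nearest lying 3735 and 5804 bp away. About 5 kb further into the gene the annotation marks another transcription start. There the control peaks chr18:80704299-80706035 (27 fragments, fold 6.92) and chr18:80706325-80708692 (28 fragments, fold 7.16) both overlapped RA peaks, of 11 fragments and fold 3.80 in the first, and of 15 and 15 fragments and fold 5.29 and 4.13 in the second. An RA peak at chr18:80702595-80702852 (15 fragments, fold 5.29) lay 1447 bp from the nearest control peak and was the only BATF peak with RA at these 10 genes that overlapped none. With RA, 1 of the 4 BATF peaks at this end of Nfatc1 lay on the inner start, the other 3 were further into the gene, and none lay on exon 1, although the exon 1 control peak counts as shared at 5 kb.

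At the other end of Nfatc1, the intron 9 peak chr18:80611249-80612818 had 30 control fragments and fold 4.38, and its RA partner had 25 fragments and fold 4.31. In summit fragments per 1000000 fragments of the pool (CPM) this was 1.30 (exact Poisson 95% interval 0.876 to 1.85) and 1.52 (0.985 to 2.25), so the intervals overlapped. Such intervals cover counting error only, and the summit is by construction the highest point of a peak. The intergenic control peak chr18:80600545-80600942, 5263 bp past the gene (33 fragments, fold 6.72), had no RA peak nearer than 10839 bp.

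Nfatc2 (chr2:168476410-168601657), an NFAT factor already present in resting T cells, held 1 BATF site of high fold and several of lower fold. The intron 9 peak chr2:168491760-168492272 had 66 control fragments, fold 16.5 and rank 445 by fold among 15812 peaks. With RA it had 34 fragments and fold 11.1, or 2.07 CPM (1.43 to 2.89) after 2.86 (2.21 to 3.63), and the intervals overlapped. The promoter peak chr2:168588835-168591244 had 58 fragments and fold 9.71. It overlapped 2 RA peaks of 22 and 19 fragments (fold 7.28 and 5.46), the second on an annotated transcription start inside the gene. Of the other 6 control peaks, with fold from 3.11 to 6.52, 3 overlapped an RA peak, 1 had one within 5 kb and 2 had none. The 2 were in introns, chr2:168532295-168532799 with 50 fragments and fold 6.15 and chr2:168556376-168557237 with 26 fragments and fold 3.33. The first had the smallest p of the 11 control peaks at these genes that had no RA peak within 5 kb (−log10 p 24.7).

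Nfatc3 (chr8:106058818-106130537) had its BATF signal at the promoter. The control peak chr8:106058653-106061333 had 57 fragments and fold 12.5, and with RA 2 shorter peaks lay within it, of 29 and 20 fragments (fold 8.18 and 6.0). A weaker control peak inside the gene (chr8:106061851-106063375, fold 5.21) and one 4085 bp outside it (fold 3.69, assigned to 9 genes and only 439 bp from Dus2) had RA peaks within 5 kb but overlapped none. The IgG level at the latter was 3.02 times the lowest in the list.

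Nfat5 (chr8:107293435-107379517) had no peak in any list, on the same chromosome as Nfatc3. The nearest BATF control peak was 23743 bp away, at the promoter of Nqo1 (20 fragments, fold 5.37), and the nearest with RA was 45148 bp away. The nearest RARα control peak, at 1234345 bp, was the one at Nfatc3.

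**Figure D2:**
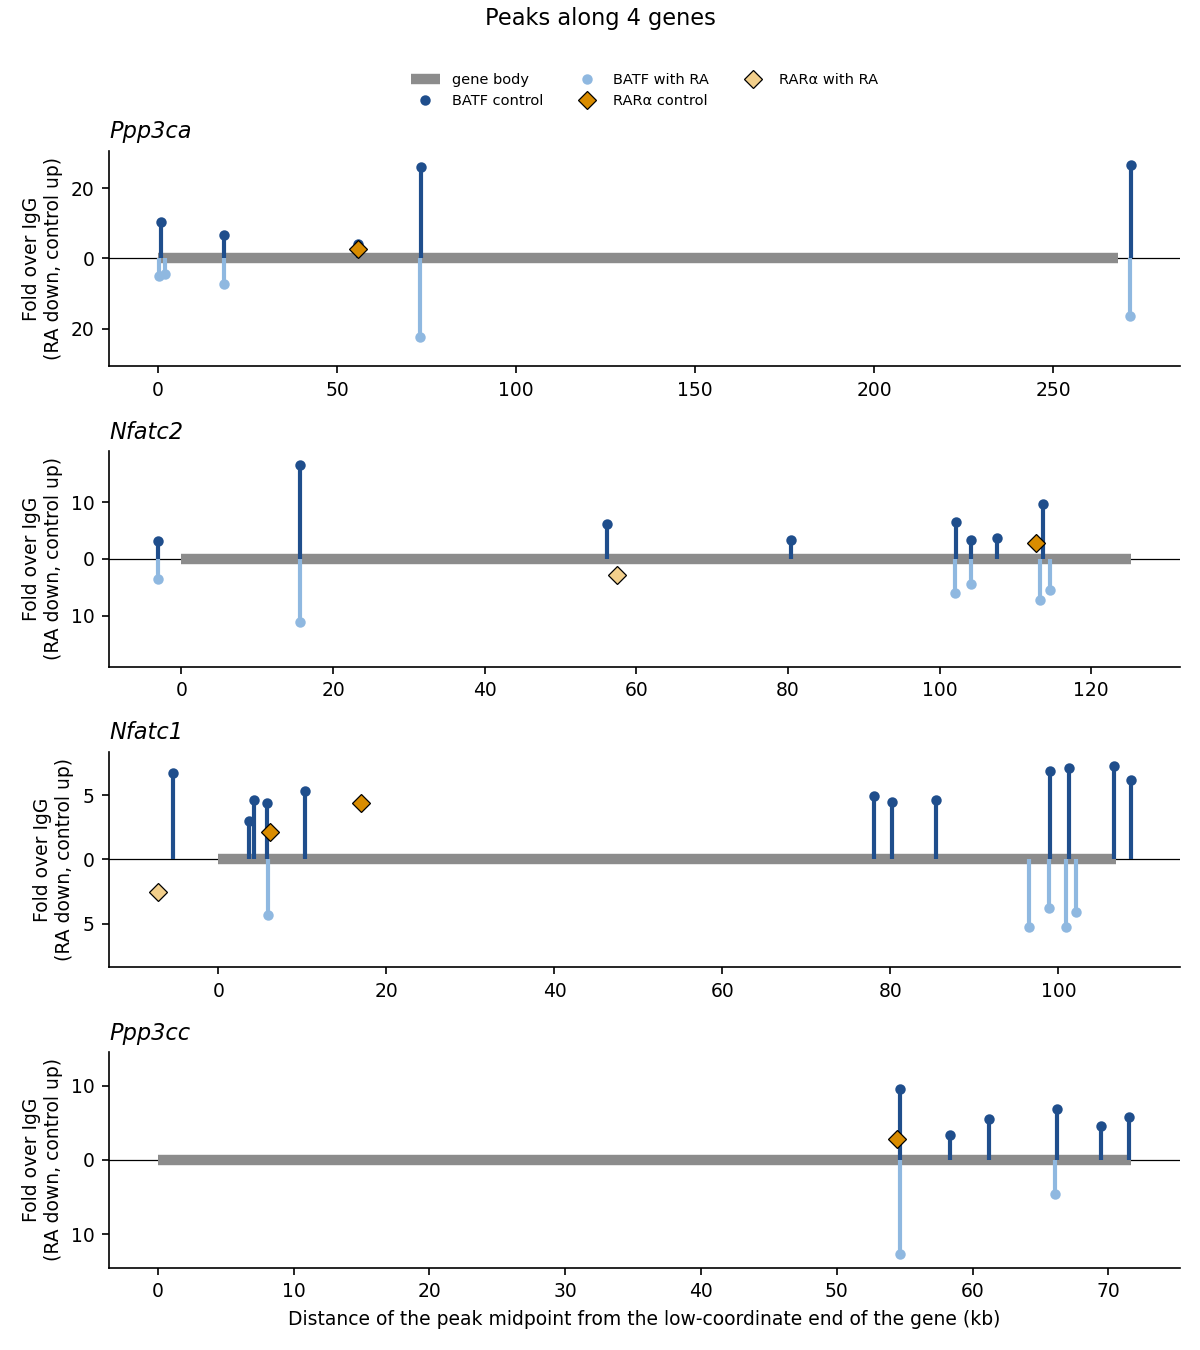
Peaks along Ppp3ca, Nfatc2, Nfatc1 and Ppp3cc, with the distance of the peak midpoint from the low-coordinate end of the gene in kb on the horizontal axis and fold enrichment over IgG on the vertical axis, control upward and RA downward, and the gene body as a grey bar. Circles on stems are BATF peaks and diamonds RARα peaks; the 2 tallest Ppp3ca stems, fold 26.7 and 26.0 in the control, have RA partners of 16.3 and 22.3, and the intron 2 group of Nfatc1 has none.

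Ppp3ca (chr3:136669714-136937727), the calcineurin A alpha subunit, had the 2 BATF peaks of highest fold at these genes. The first, chr3:136940827-136941971, was intergenic, 3100 bp past the high-coordinate end of the gene and at the other end of the gene from the annotated exon 1, with 161 control fragments, fold 26.7 and rank 109 of 15812. With RA it had 74 fragments and fold 16.3. In CPM this was 6.97 (5.93 to 8.13) in the control and 4.51 (3.54 to 5.66) with RA, and the intervals did not overlap. It was the only one of 19 overlapping pairs at these genes of which this was true. Over all BATF control peaks that overlapped an RA peak, the RA interval was wholly below in 2.24% and wholly above in 0.116%.

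The second, chr3:136742829-136743266 in intron 1 of Ppp3ca, had 120 control fragments, fold 26.0 and rank 119. With RA it had 77 fragments, fold 22.3 and rank 129 of 9899, or 4.69 CPM (3.70 to 5.86) after 5.19 (4.31 to 6.21). These intervals overlapped, and whether the change differed between the pair of strong Ppp3ca sites was not tested. Another intron 1 peak, chr3:136687999-136688501, had 88 and 58 fragments (fold 6.76 and 7.20, with an IgG level 4.19 times the lowest in the control list). At the promoter, chr3:136669402-136672061 had 41 fragments and fold 10.4, and the 2 RA peaks within it had 15 and 13 (fold 5.05 and 4.43). The remaining intron peak, chr3:136725364-136725871 (19 fragments, fold 4.09), had no RA peak nearer than 16999 bp.

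Ppp3cb (chr14:20499364-20546573), the calcineurin A beta subunit, differed little at its promoter. The control peak chr14:20544532-20546588 had 46 fragments, or 1.99 CPM (1.46 to 2.65), with fold 9.14, and its RA partner had 32, or 1.95 (1.33 to 2.75), with fold 8.61. The authors also attached this peak to 1810062O18Rik. The other control peak assigned to Ppp3cb lay 94109 bp away within the span of Usp54, was shared among 13 gene names, and had the lowest fold of the 43 control peaks, 2.83, at an IgG level 4.89 times the lowest.

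Ppp3cc (chr14:70217864-70289536), the calcineurin A gamma subunit, had all 6 of its BATF control peaks near its annotated exon 1, with midpoints at most 17.0 kb from that end of the gene. The strongest, chr14:70272139-70272905 in intron 1, had 76 fragments and fold 9.51 in the control and 66 fragments and fold 12.6 with RA. In CPM it was 3.29 (2.59 to 4.12) and 4.02 (3.11 to 5.11), higher with RA but with overlapping intervals. The peak chr14:70283759-70284402 went the other way, with 53 and 26 fragments and fold 6.91 and 4.63. The other 4, including the one on exon 1 (chr14:70288791-70289930, 28 fragments, fold 5.73), had fold from 3.41 to 5.73 and lay 2989 to 4736 bp from an RA peak without touching one. They count as shared at 5 kb, yet in their own place no RA peak was called.

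Rcan1 (chr16:92391951-92466169) had no peak in any list. The nearest BATF control peak lay 154726 bp away in an intron of Runx1 (34 fragments, fold 4.94), and with RA the nearest was at 333210 bp. The nearest RARα control peak, at 359500 bp, was at a Runx1 promoter.

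Egr2 (chr10:67534469-67542188) had 1 BATF control peak at its promoter and 4 far from it. The promoter peak, chr10:67536713-67537164, had 33 control fragments, 1.43 CPM (0.983 to 2.01), and fold 6.04, and no RA peak lay nearer than 11584 bp. The 4 others lay 44176 to 68473 bp from Egr2, were also attached to Ado, and were nearer to Ado (37409 to 61706 bp). Of these, chr10:67610661-67611155 had 66 control and 38 RA fragments (fold 8.27 and 6.46), and chr10:67586364-67586823 had 34 and 29 (fold 5.31 and 6.21). Of the rest, chr10:67598747-67599101 (26 fragments, fold 6.48) had no RA peak nearer than 11622 bp and chr10:67607697-67608027 (26 fragments, fold 3.81) had one at 2696 bp. A control peak 6320 bp from Egr2, at the promoter of Ado (33 fragments, fold 5.79), was attached to Ado alone, and unlike the Egr2 promoter peak it covered RA peaks, of 19 and 16 fragments.

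Egr3 (chr14:70077317-70082613), which lies on the same chromosome as Ppp3cc, had no peak inside the gene. Its 2 BATF control peaks lay 11068 and 15135 bp away, were attached to 6 and 5 gene names, and were nearer to Pebp4. The closer one, chr14:70065557-70066249, had 28 control fragments and fold 6.96, and 22 fragments and fold 5.93 with RA. The other (20 fragments, fold 5.04) had an RA peak at 3593 bp and none overlapping.

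By the highest BATF control fold, the order was Ppp3ca (26.7), Nfatc2 (16.5), Nfatc3 (12.5), Ppp3cc (9.51), Ppp3cb (9.14), Egr2 (8.27), Nfatc1 (7.31) and Egr3 (6.96). With RA it was Ppp3ca (22.3), Ppp3cc (12.6), Nfatc2 (11.1), Ppp3cb (8.61), Nfatc3 (8.18), Egr2 (6.46), Egr3 (5.93) and Nfatc1 (5.29). Ppp3ca was first in both, and no spread is at hand to say which neighbours in these orders differ.

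Of the 43 BATF control peaks at these genes, 19 overlapped an RA peak, 13 had one within 5 kb only, and 11 had none (25.6%, beside 30.1% of all). The share with an RA peak within 5 kb was 74.4% (Wilson 95% interval 59.8 to 85.1), beside 69.9% of all BATF control peaks, and the share that overlapped one was 44.2% (30.4 to 58.9), beside 54.4%. Both intervals contain the value for all peaks. They cover counting error only and treat the 43 peaks as separate, although 12 were at Nfatc1 and 8 at Nfatc2. Several control peaks also share an RA peak, so the intervals are no test. The 11 without an RA peak were 5 at Nfatc1, 2 at Nfatc2, 2 at Egr2, 1 at Ppp3ca and 1 at Ppp3cb. Their fold ran from 2.83 to 6.72 (median 4.94), against a median of 6.13 for the 32 with one, and the same medians over all peaks were 4.55 and 6.04.

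Since the RA pool was smaller, each control peak was also rescaled to its depth and its p recomputed by the peak caller's formula. All 11 would then have passed 1e-05, beside 88.1% of all control peaks without an RA peak. Of the 43, 40 would have passed, beside 93.6% of all. Of the 32 with an RA peak within 5 kb, 29 would have passed, beside 96.0% of all such peaks. The Nfatc2 peak chr2:168473047-168473710 would not have passed, yet it overlapped an RA peak. Rescaling added no counting error to the summit fragments, and whether depth accounts for the 11 was not tested. In the other direction, 24 of 24 BATF peaks with RA had a control peak within 5 kb (96.3% of all) and 23 overlapped one (93.6%).

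**Figure D3:**
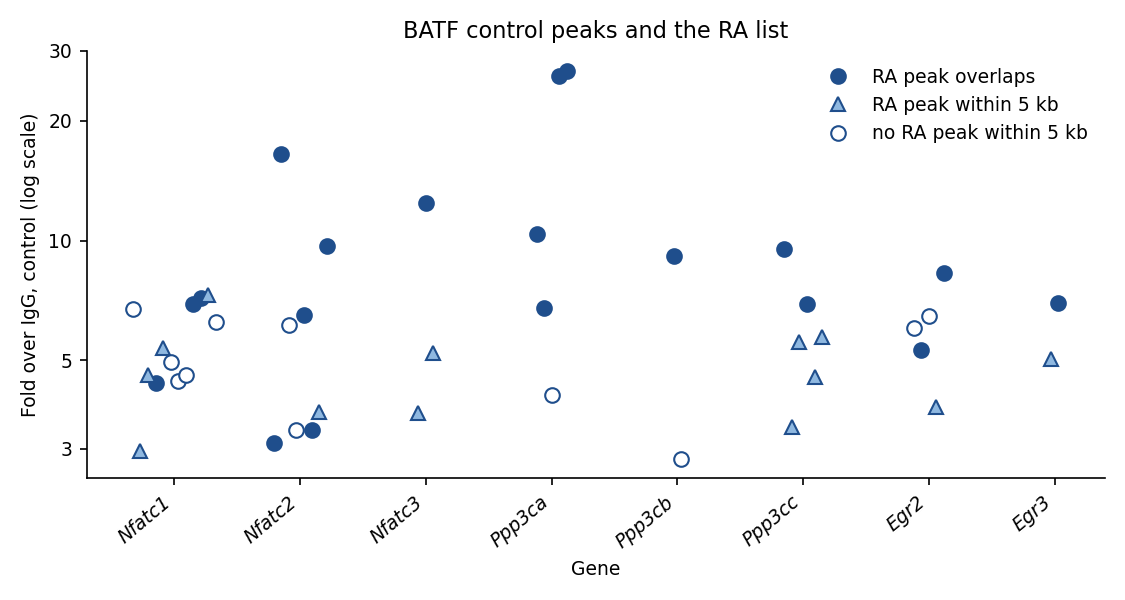
Fold enrichment over IgG (log scale) of the 43 BATF control peaks, by gene and in order of position within a gene. Filled circles overlap an RA peak, triangles have one within 5 kb and open circles have none; the open circles lie between 2.83 and 6.72.

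Most of the peaks lay in introns or between genes. By the authors' classes, 12 of the 43 control peaks were promoter (27.9%, beside 58.7% of all), 20 intron (46.5%, beside 20.1%), 11 intergenic (25.6%, beside 18.1%) and 0 exon (3.04%). With RA, 9 of 24 were promoter (37.5%, beside 64.6%), 10 intron (41.7%, beside 17%) and 5 intergenic (20.8%, beside 16.2%), with 0 exon (2.19%). An RA peak within 5 kb was found for 10 of 12 promoter peaks, 14 of 20 intron peaks and 8 of 11 intergenic peaks, which is 83.3%, 70.0% and 72.7%, beside 74.3%, 64.5% and 62.3% over all peaks of each class. The 2 promoter peaks without one were those at Egr2 and beyond exon 1 of Nfatc1.

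The median fold was 5.73 over the 43 control peaks (5.4 over all) and 5.93 over the 24 with RA (5.29 over all). A fold of at least 5 was reached by 27 of 43 (62.8%, beside 58.4%) and by 17 of 24 (70.8%, beside 56.3%). Where each control peak was set beside the nearest RA peak within 5 kb, the median log2 ratio of fold, RA over control, was −0.12 (quartiles −0.42 and 0.23, 32 pairs), against −0.20 over 11048 pairs of all peaks. Fold was lower with RA in 19 of 32 pairs (59.4%, Wilson interval 42.3 to 74.5), beside 66.9% of all. In CPM the median log2 ratio was 0.024, beside −0.18 over all pairs, with 15 of 32 lower (46.9%, beside 66.5%). In this pairing the direction of the median at these genes thus turned with the scale.

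Several control peaks share 1 RA peak in these pairs. With each of the 24 RA peaks used once, beside its nearest control peak, fold was lower with RA in 19 (79.2%, beside 76.1% of 9528 pairs of all peaks) and the median log2 ratio was −0.40, beside −0.29. In the 19 that overlapped, fold was lower with RA in 14 (73.7%, beside 75.5% of all overlapping pairs), with a median log2 ratio of −0.23, beside −0.27. Whether the median at these genes was nearer to 0 or further from it than over all peaks thus turned with the pairing. Most of the 19 were lower with RA in CPM too, for which no share over all overlapping pairs was computed. The CPM intervals overlapped in 18 (94.7%, beside 97.6% of all overlapping pairs). At 4 of the 19, the promoter peaks of Nfatc1, Nfatc2, Nfatc3 and Ppp3ca, the broad control peak overlapped at least 2 RA peaks, beside 7.11% of all overlapping control peaks.

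**Figure D4:**
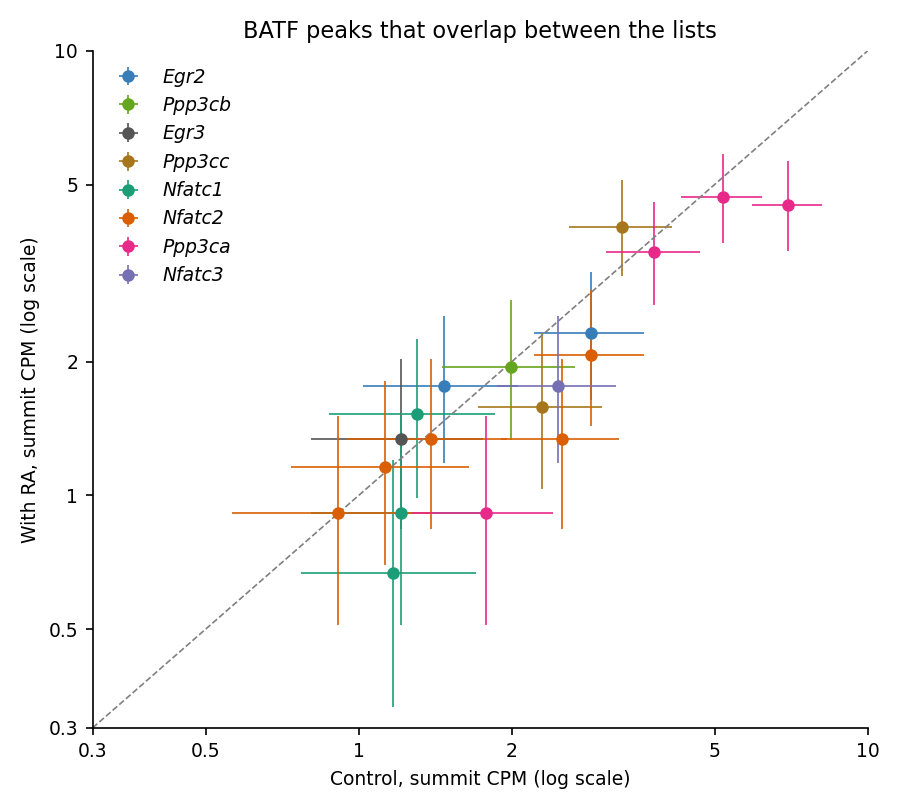
Summit CPM with RA (vertical) against control (horizontal), both on log scales, for the 19 overlapping BATF pairs, coloured by gene. Bars are exact Poisson 95% intervals and the dashed line marks equal values; the rightmost Ppp3ca point, 6.97 and 4.51, is the only one whose intervals do not overlap.

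RARα control peaks were called at Nfatc1 (2), Nfatc2, Nfatc3, Ppp3ca and Ppp3cc (1 each), which is 5 of the 10 genes, beside 7.18% of all genes. Their fold ran from 2.14 to 4.38. The Nfatc1 intron 9 peak chr18:80622979-80623382 had 16 fragments and fold 4.38, the highest of the 6 and rank 168 of 1172. A second Nfatc1 peak in the same intron, chr18:80612179-80612527, had 16 fragments and fold 2.14 where the IgG level was 2.41 times the lowest in the list. The Nfatc3 promoter peak chr8:106058838-106059090 had 13 fragments and fold 3.12, and the Nfatc2 promoter peak chr2:168588903-168589243 had 10 and 2.83. The Ppp3ca intron peak chr3:136725481-136725836 had 12 and 2.62. The Ppp3cc intron peak chr14:70271979-70272547, on a SINE repeat, had 30 and 2.84 where the IgG level was 3.45 times the lowest. The lowest count called in this list was 9, the median fold of the 6 was 2.84 (3.09 over all 1172) and their median CPM 0.640 (0.574 over all), and a q-value of at most 0.05 was reached by 2 of 6, at Ppp3cc and at the first Nfatc1 site (34.9% of all).

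With RA, none of the 6 had a RARα peak within 5 kb, beside 10.2% of all RARα control peaks that did, at a pool of nearly the same size. The RA list instead held 3 peaks at other places, at 3 of the 10 genes (3.19% of all genes). These were chr2:168533700-168533981 in intron 5 of Nfatc2 (10 fragments, fold 2.78), chr18:80598865-80599117, 7088 bp from Nfatc1 on a LINE repeat and also attached to Gm2176 (9 fragments, fold 2.53), and chr10:67451889-67452185, 82284 bp from Egr2 on an LTR repeat and also attached to Ado (11 fragments, fold 3.03). None had a RARα control peak within 5 kb (19.6% of all RA peaks did), and none reached a q-value of 0.05 (16.2% of all did). Nfatc1 and Nfatc2 thus had a RARα peak in both conditions, but not in the same place.

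Of the 6 RARα control peaks, 5 overlapped a BATF control peak (83.3%, Wilson interval 43.6 to 97.0), beside 53.4% of all RARα control peaks. The interval contains the value for all peaks. At a RARα p of at most 1e-05 only 2 of the 6 were left, and the share with a BATF control peak was 50%. Among the 6, the exception was the Nfatc1 peak of highest fold, 6204 bp from the nearest BATF control peak. The 5 were at intron 9 of Nfatc1, the promoters of Nfatc2 and Nfatc3, and introns of Ppp3ca and Ppp3cc. At 4 of these 5 sites a BATF peak with RA overlapped the RARα position although no RARα peak was called there with RA, beside 72.2% of the 561 such sites in the whole list. At the Ppp3ca intron, the BATF peak was missing with RA as well. Counted from BATF, 12 of the 43 control peaks lay within 5 kb of a RARα control peak, beside 7.16% of all BATF control peaks. An overlap was found for 5 (3.92% of all). The 12 lay around the same 5 RARα peaks, so that a RARα peak could be counted more than once. With RA, 0 of 24 BATF peaks had a RARα peak with RA within 5 kb (1.22%).

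The RARα peaks with RA at Nfatc1 and Nfatc2 lay 1428 and 901 bp from BATF control peaks, the intergenic one of fold 6.72 and the intron one of fold 6.15, both of which had no BATF peak with RA within 5 kb. Such a position, near a BATF peak of the control and near none with RA, was held by 2 of the 3 RARα peaks with RA at these genes and by 2.35% of all 597. It was not a planned comparison and was described from these same peaks, so the shares are no test of a difference. The RARα peaks in question had 9 and 10 fragments, at or next to the lowest count called in that list.

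**Figure D5:**
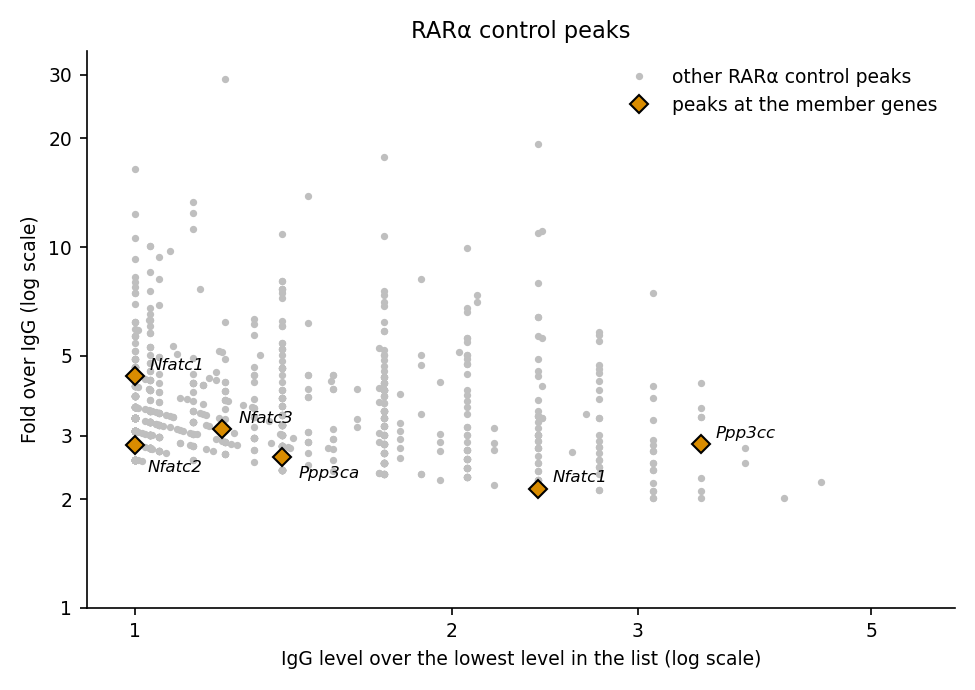
Fold enrichment over IgG (vertical) against the IgG level relative to the lowest in the list (horizontal), both on log scales, for RARα control peaks, with grey points for other peaks and diamonds for the 6 at these genes. 9 peaks with an IgG level over 6 times the lowest are not drawn; the diamonds lie between fold 2.14 and 4.38.

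Among 34 further genes of the route (receptors, calmodulins, channels, kinases that oppose NFAT, other inhibitors, EGR family members and EGR corepressors), 27 had a BATF control peak (79.4%, beside 48.6% of all genes) and 24 one with RA (70.6%, beside 38.3%). Of the 27, 23 had both (85.2%, beside 76.5% of all genes). The 7 without a BATF control peak were Nfatc4, Ppp3r2, Rcan2, Akap5, Homer2, Homer3 and Egr4. The highest control fold values were at Itpr1, Itpr2 and Nab1. Itpr1 and Itpr2 encode receptors that release calcium from internal stores, and Nab1 encodes an EGR corepressor. The Itpr1 intron peak chr6:108313909-108314535 had 151 control and 119 RA fragments (fold 30.02 and 26.1). The peak chr6:146080791-146081788, 26511 bp from Itpr2, had 144 and 116 (fold 23.9 and 25.4), and that at chr1:52363578-52363973, 91876 bp from Nab1, had 68 and 59 (fold 17.6 and 19.8). These 3 sites and the Ppp3ca pair had the highest control fold among the peaks of the route, and each overlapped an RA peak.

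RARα control peaks were assigned to 7 of the 34, beside 7.18% of all genes, and 3 of these had higher fold than any at the 10 genes. The peak chr14:55913222-55913823, attached to Nfatc4 and 8 other genes and 79279 bp from Nfatc4, had 53 fragments, fold 10.9 and rank 12 of 1172, and with RA 44 fragments and fold 9.11. The peak chr17:44121450-44121934, 81934 bp from the calcineurin inhibitor gene Rcan2, had 39 fragments and fold 8.05, and with RA 20 and 4.25. At Egr1, chr18:34854244-34854757 lay 6450 bp from the gene on a BATF peak of both conditions, had 37 fragments and fold 7.64, and had no RARα partner with RA. The Nfatc4 and Rcan2 peaks overlapped a RARα peak of the other condition, which none of the RARα peaks at the 10 genes did.

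The 4 other RARα control peaks of the list were weaker. They lay at the promoter of the calmodulin gene Calm2 (15 fragments, fold 3.74), 2972 bp from the calcium sensor gene Stim2 (36 fragments, fold 3.39, IgG level 3.45 times the lowest), in an intron of the kinase gene Dyrk1a (10 fragments, fold 2.83), and 52695 bp from Nfatc2ip (10 fragments, fold 2.83). With RA, 3 of the 34 genes had a RARα peak (3.19% of all genes), Nfatc4, Rcan2 and Ppia, the cyclophilin A gene, where a peak of 9 fragments and fold 2.53 lay 29013 bp away.

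By the number of peaks and the highest fold in each of the 4 lists, the genes most like Nfatc1 were Lyst, Prkca and Pabpc1, at Euclidean distances of 0.97, 1.02 and 1.19 on the log2 scale over 8 measures. Lyst had 8 BATF control and 4 RA peaks, Prkca 8 and 3, and Pabpc1 5 and 5, with highest control folds of 8.16, 7.93 and 7.41.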

How the data were processed

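ChIP-seq of RARα and BATF in CD8 T cells was taken from 4 annotated peak lists. Bowtie2, MACS2 and HOMER are named in the submitters' processing notes, and the file headers give MACS 2.2.7.1, mm10, pooled files and the p cutoffs. The deposited pileup is a signal, the fragments at the summit, scaled in the BATF control list by 0.9875, which was undone. The deposited fold enrichment is a ratio to the IgG level, from which that level was recovered. The deposited p-values and q-values are on the −log10 scale. The authors attached gene names and a class to each peak.

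Peaks were matched by gene name. Gene positions, in the same build, came from a RefSeq table of GRCm38.p6 without strand. Peaks within 5 kb counted as shared, after the methods. Shares carry Wilson and fragments exact Poisson 95% intervals. Rescaling to the RA depth multiplied fragments and IgG level by the ratio of the pools. The p formula returned the deposited −log10 p within 0.01 for 99.8% of BATF control peaks. The search for shared peaks, tested on simulated data, found 600 of 600 planted neighbours.

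The genes, the list of 34 and the tests were chosen with earlier results of these data known. Named were the 10 genes, genes of the 34 with a RARα peak or among the 3 highest BATF control folds, genes sharing a name field with such a peak, and the 3 most like the gene with most peaks. Nqo1, Runx1 and the genes without a BATF control peak were named after their values were seen. Alternatives were stricter thresholds, other overlap distances, assignment limits and other pairings. The motif search was not run and no sequence was used here. Python 3.11.15, numpy 2.4.6, pandas 2.3.3 and scipy 1.17.1 were used.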

Additional observations from a re-analysis of the deposited data

How the results depend on the processing

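No paired analysis was possible because each condition is 1 pooled list. Of 48 alternatives, 32 left the value close (shares within their counting interval, counts and median fold ratios within 1.5 times), 15 moved it further and 1 turned its direction. RARα control peaks fell from 6 to 2 at q of at most 0.05, 2 at p of 1e-05 and 0 at fold 5, and RARα RA peaks from 3 to 0, 0 and 0, or to 1 where the peak names 1 gene. BATF control peaks numbered 27 at fold 5. The share of BATF control peaks with an RA peak was 74.4% within 5 kb and 44.2% both within 1 kb and by 1 shared base. Pairs with lower fold with RA made up 59.4%, and 79.2% where each RA peak was used once. The median log2 ratio was −0.12 by fold, 0.024 by CPM and −0.40 with each RA peak used once. Of the further genes, those with a RARα control peak fell from 7 to 3 at fold 5 and 4 within 10 kb of the gene, and with RA from 3 to 1 and 0. At p of 1e-05 no RARα RA peak was left, so its BATF share had no value. The causes of these differences were not tested. With 1 list per condition, no replicate could be left out. Counting error is wide at 9 to 30 fragments, the range of the 9 RARα peaks.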
